A study of Mus musculus with 2 samples.

Results

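The genes described here are 10 Wnt ligands of the mouse, Wnt2, Wnt4, Wnt5a, Wnt5b, Wnt6, Wnt9a, Wnt10a, Wnt10b, Wnt11 and Wnt16, taken by symbol from 31053 genes listed at E15.5 and 27998 listed at E17.5. The coronal suture, the fibrous joint between the frontal and parietal bones, was dissected from C57/BL6 wild-type embryos and profiled by single-cell RNA sequencing with 10x Genomics 3′ chemistry. The E15.5 cells came from 10 pooled sutures, treated together with collagenase II plus dispase and then with a kit that removes dead cells. The E17.5 cells came from 16 sutures (2 litters, 3 batches of 10, 3 and 3), treated with collagenase IV and then FACS-sorted for live cells. Each stage is 1 deposited matrix, called a library here. The study prepared the 3 E17.5 batches as separate libraries, but cells could not be assigned to a batch. E15.5 has no replicate, and stage, enzyme, cell selection, counting and embryos cannot be told apart.

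Wnt proteins are secreted, lipid-modified glycoproteins. Porcn attaches the lipid, Wls carries the ligand to the cell surface, and Frizzled receptors bind it on the receiving cell. With the co-receptors Lrp5 and Lrp6 the signal stabilises β-catenin and switches on targets such as Axin2, whereas Ror1, Ror2 and Ryk take part in β-catenin-independent responses that steer cell polarity and movement. In the skull, Wnt signals are known to promote osteoblast differentiation and bone formation.

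The authors' labels put the osteogenic and mesenchymal cells in 15 clusters: ectocranial clusters EC1 to EC4 and a ligament-like cluster LIG above the bones, meningeal clusters MG1 to MG4 below them, and the osteogenic clusters OG1 to OG4 with the proliferative clusters PO1 and PO2. The label was found for 5335 cells of the E15.5 library (median 8510 unique molecular identifiers, UMIs, per cell) and for 6830 of the E17.5 library (median 12301.5). Of 45 pairs of a cluster and a marker of its label, 37 were at least 2-fold above the other labelled cells in both libraries and all 45 were above them. Markers that the paper names for its clusters, such as Erg and Pthlh for OG1, came from these same cells. This check of the labels is therefore not independent. Clusters are small in places, with 28 MG1 cells and 35 PO2 cells at E15.5. The libraries shared 94 cell barcodes. A level is given as CPM, the gene's UMIs over all UMIs of the cluster times 1000000, with an exact Poisson 95% interval. With 3′ counts the levels of different genes are not set against each other. Intervals cover counting error only, and no p-value was computed, because cells of 1 library are not replicates. Unlabelled cells with myeloid markers, called myeloid-like, served as a reference level for free RNA. They were 395 and 557 cells in the earlier and later library, with medians of 8803 and 9206 UMIs. Whether such cells make ligand RNA themselves was not tested.

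Wnt ligands were divided among clusters, and by the rule that follows 6 of the 10 were enriched in at least 1 of the 5 ectocranial clusters (EC1 to EC4 and LIG), against 7.78% of genes. Counting a gene as enriched when it reached 2 times the level of the remaining labelled cells in both libraries, 8 of the 150 pairs of a ligand and a cluster (5.33%) were enriched, against 2.28% of such pairs over 14355 genes with at least 10 UMIs in each library. The 8 pairs belonged to 8 different ligands, and 25.5% of the 14355 genes were enriched in at least 1 cluster. Wnt2, Wnt10b and Wnt16 were enriched in EC2 (3 of 10 ligands, against 2.91% of genes in that cluster), Wnt5a and Wnt9a in EC4 (2 of 10, against 1.75%), Wnt11 in LIG (1 of 10, against 1.12%), Wnt6 in MG4 (against 4.16%) and Wnt10a in OG4 (against 3.44%). Wnt4 and Wnt5b were enriched in no cluster under this rule. The clusters were drawn by the authors from the same cells, so these counts describe the clusters and test nothing.

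**Figure D1:**
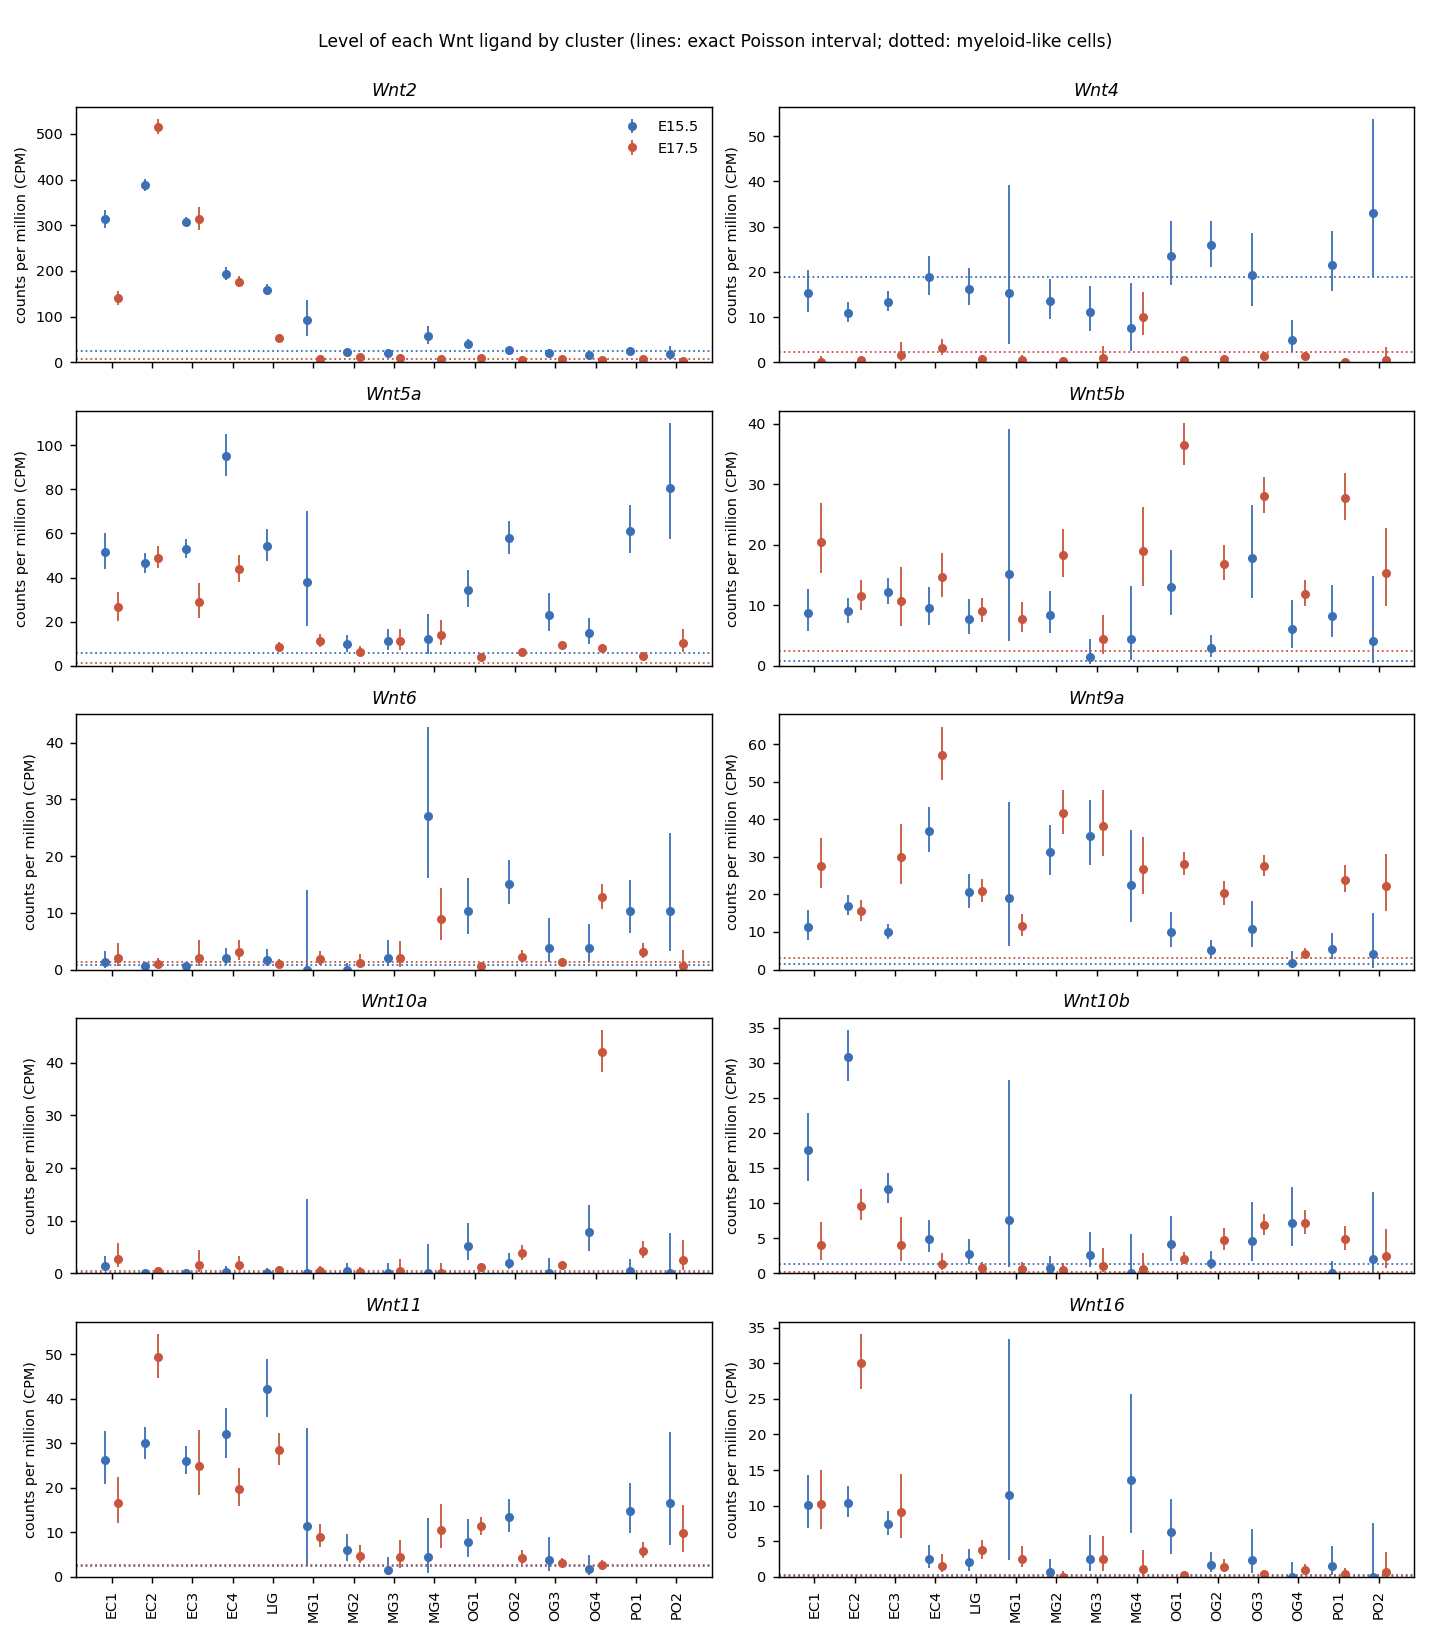
Level of each ligand (CPM, linear axis from 0, different in each panel) in the 15 clusters at E15.5 (blue) and E17.5 (red). Points are summed levels with exact Poisson 95% intervals, and dotted lines give the level in myeloid-like cells of the same library. Wnt2 stands highest in EC2 at both stages (389 and 516), Wnt10a reaches 42.0 only in OG4 at E17.5, and Wnt4 at E15.5 lies near its dotted line (18.8) in most clusters.

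Wnt2, a ligand best known from lung and placental development, was highest in the ectocranial layers. It lies on the minus strand at chr6:17988940-18030585 (GRCm38, GENCODE, as for the genes that follow). At E15.5 its level was 389 CPM in EC2 (376 to 402, 3579 UMIs in 925 cells), 313 in EC1, 308 in EC3, 194 in EC4 and 159 in LIG. At E17.5 it was 516 in EC2 (500.0 to 532, 4099 UMIs in 608 cells), 313 in EC3, 176 in EC4, 140.4 in EC1 and 53.2 in LIG. Each neighbour in these orders differed beyond counting error, except EC1 and EC3 at E15.5. The fold of EC2 over the other labelled cells was 2.48 (2.38 to 2.59) in the earlier library and 15.9 (15.1 to 16.7) in the later one. Those other cells, of a different mix in each library, held 157 and 32.5 CPM, while the EC2 level itself differed 1.33-fold. The 3 barcode suffixes of the E17.5 matrix, which the sources used here do not tie to the 3 batches, gave 563, 494 and 499 in EC2, and the fold in EC2 was 10.5 with suffix 1 alone.

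In the remaining clusters Wnt2 was nearer to the level of myeloid-like cells. The meningeal and osteogenic clusters held 15.47 (OG4) to 91.6 (MG1) at E15.5, against 25.6 in myeloid-like cells, and MG1, MG4 (57.2) and OG1 (40.0) were above the latter beyond counting error. The range at E17.5 was 3.70 (PO2) to 12.4 (MG2), against 7.58, and only MG2 was above. After each cell was thinned to 3000 UMIs, 67.0% of EC2 cells (63.8% to 70.1%, Clopper-Pearson) carried a Wnt2 UMI in the earlier library and 78.3% (74.8% to 81.5%) in the later one, against 4.97% and 2.33% of myeloid-like cells. Before thinning the EC2 shares were 95.4% and 99.3%, at medians of 9732 and 12602 UMIs per cell. Across the 15 clusters the Spearman correlation of the Wnt2 levels at both stages was 0.775, a description over clusters that share their libraries. The genes whose pattern over clusters was most like that of Wnt2 in both libraries were Cbln2, Ap2a2 and Dsel, with lower correlations of 0.90, 0.89 and 0.87 over 15 clusters among 11146 genes.

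Wnt10b, a bone-promoting ligand that acts through β-catenin, was also highest in EC2 at both stages. Its gene is at chr15:98770712-98778150, minus strand. At E15.5 its level was 30.8 in EC2 (27.4 to 34.6), 17.6 in EC1 and 12.03 in EC3, and these 3 differed beyond counting error. At E17.5 it was 9.56 in EC2 (7.53 to 11.97), followed by 7.15 in OG4 and 6.83 in OG3, and neighbours in this order did not differ beyond counting error. The fold of EC2 over the other labelled cells was 4.73 (3.98 to 5.62), then 2.68 (2.06 to 3.46). The myeloid-like cells held 1.32 and 0.176, the latter from 1 UMI. Among thinned EC2 cells, 8.39% carried a Wnt10b UMI in the earlier library and 2.30% in the later one, against 0.785% and 0 of 557 myeloid-like cells. Hk2, Pde8a and Mgll had the most similar pattern, with lower correlations of 0.86, 0.78 and 0.76.

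Wnt16, a ligand known for restraining osteoclast formation in cortical bone, had its sharpest contrast at E17.5 (chr6:22288227-22298522, plus strand). Its level in EC2 was then 30.1 (26.4 to 34.1), against 10.3 in EC1, 9.14 in EC3 and at most 3.69 elsewhere, an 18.3-fold (14.8 to 22.7) difference from the other labelled cells. At E15.5 the EC2 level was 10.4 (8.44 to 12.7), 2.37-fold above the others, beside 10.1 in EC1, 11.5 in MG1 from 3 UMIs and 13.5 in MG4 from 9 UMIs. At that stage no cluster among these differed from its neighbour in the order beyond counting error, so a single highest cluster cannot be named. With cells thinned to 3000 UMIs, the fold of Wnt16 in EC2 was 18.7 at E17.5 but under 2 at E15.5, so the pair was not enriched. Myeloid-like cells held 1 Wnt16 UMI in each library, and the labelled cells outside EC2 held 4.39 CPM at E15.5 and 1.64 at E17.5. Dbn1, Mrrf and Hs6st2 had the most similar pattern over clusters (lower correlations 0.80, 0.75 and 0.74).

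The sequences before the starts of these 3 EC2 genes are shown because the genes share their enriched cluster. They are RefSeq promoters on GRCm38, cut to the bases that lie before the start in RefSeq and before the GENCODE gene, 5′ to 3′ on the strand of the gene. Capitals mark E-boxes (CANNTG, which reads the same on both strands), the motif bound by basic helix-loop-helix factors such as Twist1.
Wnt2, minus strand, chr6:18030586-18030695: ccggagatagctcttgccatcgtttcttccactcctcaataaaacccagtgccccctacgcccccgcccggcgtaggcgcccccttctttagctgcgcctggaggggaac
Wnt10b, minus strand, chr15:98778151-98778400: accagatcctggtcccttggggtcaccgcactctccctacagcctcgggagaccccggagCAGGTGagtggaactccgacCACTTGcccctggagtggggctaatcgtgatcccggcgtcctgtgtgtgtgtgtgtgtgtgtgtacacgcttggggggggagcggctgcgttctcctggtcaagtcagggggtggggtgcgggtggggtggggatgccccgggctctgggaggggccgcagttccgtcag
Wnt16, plus strand, chr6:22287977-22288226: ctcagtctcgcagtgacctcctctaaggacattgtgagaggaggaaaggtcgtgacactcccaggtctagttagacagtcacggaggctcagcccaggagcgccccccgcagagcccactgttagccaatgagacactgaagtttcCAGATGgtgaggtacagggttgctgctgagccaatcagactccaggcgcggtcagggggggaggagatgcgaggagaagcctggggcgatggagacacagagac
The 110 bases of Wnt2 held no E-box, the 250 bases of Wnt10b held 2 and the 250 bases of Wnt16 held 1. An E-box stood in 39.0% of 32851 promoters over the same 110 bases and in 66.2% over 250 bases, so a match is common. The TCF/LEF letters CTTTGA, searched on both strands, were found in none of the 3 windows and in 6.89% and 13.8% of all promoters at these lengths. GC content was 62.7%, 66.8% and 59.2%, against medians of 50% and 52.4% over all promoters.

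Wnt5a and Wnt9a were enriched in EC4, the layer described in the study as lying between the cranial bones and the hypodermis. Wnt5a is the prototype of β-catenin-independent signalling and binds Ror receptors, with its gene at chr14:28504750-28527448, plus strand. Its E15.5 level was 95.02 in EC4 (85.8 to 104.9), followed by 80.6 in PO2, 61.2 in PO1, 57.8 in OG2, 54.4 in LIG, 53.1 in EC3, 51.7 in EC1 and 46.5 in EC2. At that stage Wnt5a was therefore spread over ectocranial and osteogenic clusters, and only MG2 (9.77), MG3 (11.2), MG4 (12.04), OG4 (14.9) and OG3 (23.2) were below 30. At E17.5 it was 49.1 in EC2, 43.8 in EC4, 28.9 in EC3 and 26.5 in EC1, with EC2 and EC4 not separated by counting error. The other 11 clusters held 4.27 (OG1) to 14.2 (MG4). The fold in EC4 was 2.15 (1.92 to 2.40), then 3.53 (3.02 to 4.11), and thinning to 3000 UMIs took the pair out of the enriched set. Myeloid-like cells held 6.08 and 1.41, and 23.1% and 13.8% of thinned EC4 cells carried a Wnt5a UMI against 1.31% and 0.359% of myeloid-like cells. Ap3s1, Vcam1 and Pir had the most similar pattern (lower correlations 0.76, 0.75 and 0.74). Gm2670, an antisense gene counted in both libraries, overlaps Wnt5a.

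Wnt9a, which acts in joint formation and in the cranial skeleton, was the other EC4 ligand (chr11:59306928-59333552, plus strand). Its level there was 36.9 (31.2 to 43.3) in the earlier library and 57.2 (50.4 to 64.6) in the later one, 2.59-fold above the other labelled cells at both stages. The dura-side clusters MG3 (35.6 and 38.2) and MG2 (31.3 and 41.7) came next at both stages. At E15.5 EC4, MG3 and MG2 did not differ from their neighbours in the order beyond counting error, whereas at E17.5 EC4 was 1.37-fold (1.14 to 1.66) above MG2. The lowest level was in OG4, the osteoblast cluster, with 1.66 and 4.19, close to the 1.59 and 3.17 of myeloid-like cells. In EC4 the E17.5 suffixes gave 77.2, 45.3 and 54.9, all above the E15.5 level. Tspan11, Gm10600 and Pitpnc1 had the most similar pattern (lower correlations 0.81, 0.79 and 0.77).

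Wnt11, a ligand of convergent extension movements, was the ligand of LIG, the layer with ligament genes that spans the suture (chr7:98835112-98855195, plus strand). Its E15.5 level was 42.1 in LIG (36.0 to 49.0), 32.0 in EC4, 30.0 in EC2, 26.3 in EC1 and 26.1 in EC3. At E17.5 EC2 came first with 49.4 (44.7 to 54.6), and LIG followed with 28.6 (25.2 to 32.2), so the order of these clusters changed between the libraries. LIG stood 2.06-fold (1.74 to 2.43) and then 2.46-fold (2.14 to 2.83) above the rest of the labelled cells, and 27.8% and 29.8% of its cells carried a Wnt11 UMI before thinning (11.2% and 8.44% after, against 0.262% and 0.539% of myeloid-like cells). As mean UMIs per cell, without division by depth, LIG fell under the 2-fold limit. Outside the ectocranial layers Wnt11 was at most 16.5 (PO2, E15.5) and its myeloid-like levels were 2.38 and 2.65. Its levels over the 15 clusters correlated between the stages at 0.814 (Spearman), the highest value among the 10 ligands. Adgrl3, Rnf182 and Rab11fip2 had the most similar pattern (lower correlations 0.90, 0.88 and 0.85).

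Wnt10a and Wnt6 are neighbours on chromosome 1 of GRCm38, on the plus strand, and both had their highest E17.5 level in the osteoblast cluster OG4, although for Wnt6 it was not separated from MG4 by counting error. Wnt6 spans 74771892 to 74785322 and Wnt10a spans 74791516 to 74804179, so Wnt10a starts 6194 bases after the end of Wnt6. Wnt10a, a ligand known from teeth, hair and skin appendages, had 7.74 CPM in OG4 at E15.5 (4.23 to 12.98, 14 UMIs in 8 of 190 cells), which was not separated from the 5.20 in OG1 by counting error. At E17.5 it had 42.0 (38.2 to 46.1, 441 UMIs in 200 of 527 cells), with 38.6, 39.1 and 46.1 in the 3 suffixes. The next cluster at E17.5 was PO1 with 4.26, and OG4 was 9.85-fold (6.84 to 14.7) above it. Against all other labelled cells the fold in OG4 was 13.9 (6.72 to 27.7), then 27.2 (22.2 to 33.4). The E17.5 fold was 41.5 as mean UMIs per cell, 45.7 with thinned cells and 16.7 with suffix 1 alone, and the E15.5 fold was 6.21 as the mean of per-cell values. After thinning, 10.4% of OG4 cells carried Wnt10a at E17.5 against 0.180% of myeloid-like cells.

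Wnt6, which is expressed by many embryonic epithelia and acts on neighbouring mesenchyme, was scarce, with 173 UMIs in the labelled cells of the earlier library and 276 in the later one. In MG4, which the study places in the arachnoid, it had 27.1 at E15.5 (16.1 to 42.8), from 18 UMIs in 6 of 64 cells, and 8.95 at E17.5 (5.21 to 14.3), from 17 UMIs in 12 of 202 cells. The E15.5 fold in MG4, 8.38, was 3.91 without the cells with the highest doublet scores, and the pair was not enriched when suffix 2 stood for E17.5. In OG2, OG1, PO2 and PO1 the E15.5 levels were 15.1, 10.4, 10.3 and 10.3, and those at E17.5 were 2.14, 0.586, 0.617 and 3.16. In OG4 it moved the other way, from 3.87 (7 UMIs) to 12.8 (10.7 to 15.1, 134 UMIs), with 11.5, 10.1 and 15.8 in the 3 suffixes. Of 95 OG4 cells with a Wnt6 UMI at E17.5, 61 also had a Wnt10a UMI (64.2%), against 32.2% of the OG4 cells without one. The cells with Wnt6 were deeper, with a median of 22526 against 18931.5 UMIs, and the part of depth in this difference was not tested. Ints8, Gfm1 and Cisd3 had the most similar pattern over clusters, with lower correlations of only 0.675, 0.64 and 0.62. Gm29539, an antisense gene counted in both libraries, overlaps Wnt6.

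Wnt5b, a close relative of Wnt5a that acts on chondrocytes, was spread over many clusters and at E17.5 was highest in osteogenic ones (chr6:119432531-119544347, minus strand). At E15.5 it was 17.8 in OG3 (23 UMIs), 15.3 in MG1 (4 UMIs), 13.001 in OG1 and 12.2 in EC3, with no neighbours in the order separated by counting error. At E17.5 it was 36.6 in OG1 (33.2 to 40.2), 28.1 in OG3, 27.8 in PO1 and 20.6 in EC1, and OG1 was 1.30-fold above OG3, beyond counting error. MG3 was lowest at both stages, with 1.53 and 4.41. Pericyte-like cells outside the labelled set held 16.4 (11.5 to 22.6) at E15.5 and 48.2 (39.6 to 58.2) at E17.5. The highest labelled cluster at E17.5, OG1, held 36.6 (33.2 to 40.2). These 2 intervals overlap, but the interval of the ratio, used for the other comparisons, was not computed here. Myeloid-like cells held 0.793 and 2.47. Adss, Sncaip and Fam63a had the most similar pattern (lower correlations 0.71, 0.69 and 0.65). Fbxl14, a protein-coding gene on the other strand, overlaps Wnt5b and is counted in both libraries.

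Wnt4, known from kidney and ovary development, was not above the level of myeloid-like cells at E15.5 in most clusters. Its E15.5 level ran from 4.97 (OG4) to 33.0 (PO2, 16 UMIs), with 18.8 in myeloid-like cells, 15.1 in chondrocyte-like cells and 18.4 in endothelial-like cells. OG2, at 25.8 (21.2 to 31.3), was the only cluster above the myeloid-like level beyond counting error, by 1.38-fold (1.01 to 1.89). At E17.5 the gene had 99 UMIs in all labelled cells. There MG4 held 10.0 (6.02 to 15.6), from 19 UMIs in 10 of 202 cells, against 2.29 in myeloid-like cells, and no other cluster was above myeloid-like cells beyond counting error. The suffixes gave MG4 levels of 0, 4.29 and 16.9, the first from 7 cells. No annotated gene overlaps Wnt4 (chr4:137277489-137299726, plus strand), and with under 100 UMIs in a library neither Wnt4 nor Wnt10a was compared with other genes for its pattern.

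**Figure D2:**
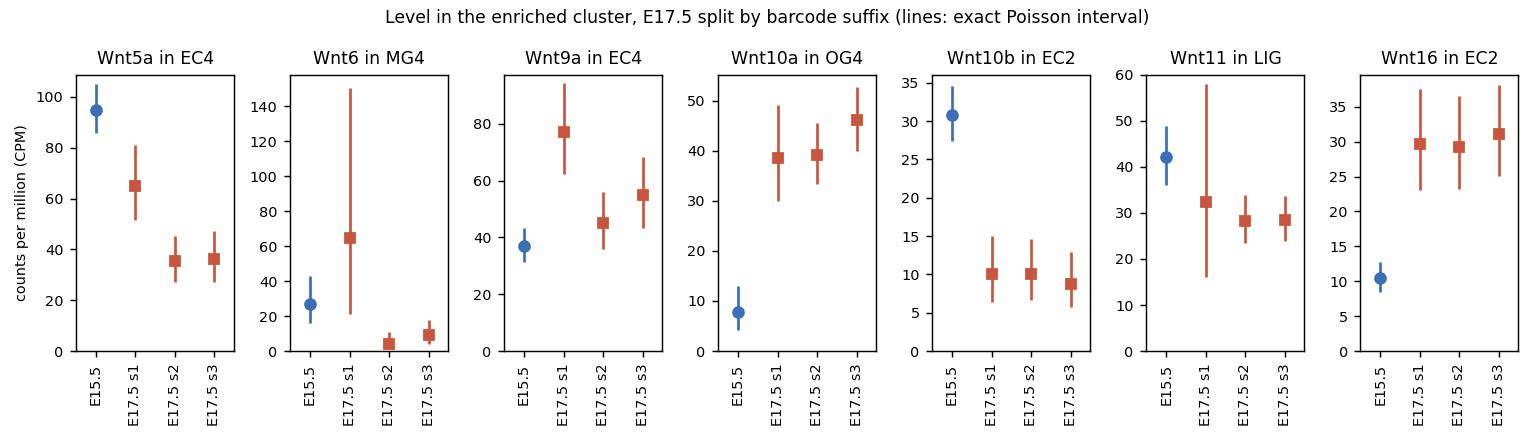
Level (CPM, axes from 0) of 7 ligands in the cluster in which each was enriched, in the E15.5 library (circle) and in each of the 3 barcode suffixes of the E17.5 matrix (squares, s1 to s3), with exact Poisson 95% intervals. Suffixes of Wnt10a, Wnt10b and Wnt16 lie together and apart from the E15.5 point, whereas the MG4 value of Wnt6 in suffix 1 comes from 7 cells.

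Levels of the ligands differed widely between the libraries. Calling a pair when the level changed at least 2-fold and the exact binomial 95% interval of the ratio excluded 1, 49 of 150 pairs were lower at E17.5 (32.7%, against 7.86% of all gene and cluster pairs) and 20 were higher (13.3%, against 5.87%). The shares over all genes were not matched for UMI counts. They take in genes with as few as 10 UMIs in a library, for which a call is harder to reach. The ligands had 40 (Wnt10a, E15.5) to 9747 (Wnt2, E15.5). As mean UMIs per cell, without division by depth, 37 were lower and 32 higher, and with cells thinned to 3000 UMIs 36 were lower and 9 higher. The lower pairs included 14 of Wnt4, 11 of Wnt2, 8 of Wnt5a and 6 of Wnt10b, and the higher pairs 7 of Wnt9a and 6 of Wnt5b. Every E17.5 suffix with cells showed the direction of the call in 48 of the 49 lower pairs and in 19 of the 20 higher pairs. The median ratio over all genes was between 0.872 (MG1) and 1.10 (OG4) by cluster, log2 -0.20 to 0.14. Dividing by it gave 50 lower and 21 higher pairs, of which 49 and 20 were the pairs called before.

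Many of the lower pairs rested on E15.5 levels that were no higher than in myeloid-like cells. When the level at the higher stage had to exceed that of myeloid-like cells beyond counting error, 28 lower and 19 higher pairs were left. Wnt4 kept 1 of its 14 lower pairs and Wnt2 kept 5 of its 11, while Wnt5a kept all 8 and Wnt6 all 5. The share of all genes passing this further condition was not computed. From E15.5 to E17.5 the myeloid-like level of Wnt2 went from 25.6 to 7.58 and that of Wnt4 from 18.8 to 2.29, alongside the fall in the labelled clusters, and their part in those pairs was not tested.

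**Figure D3:**
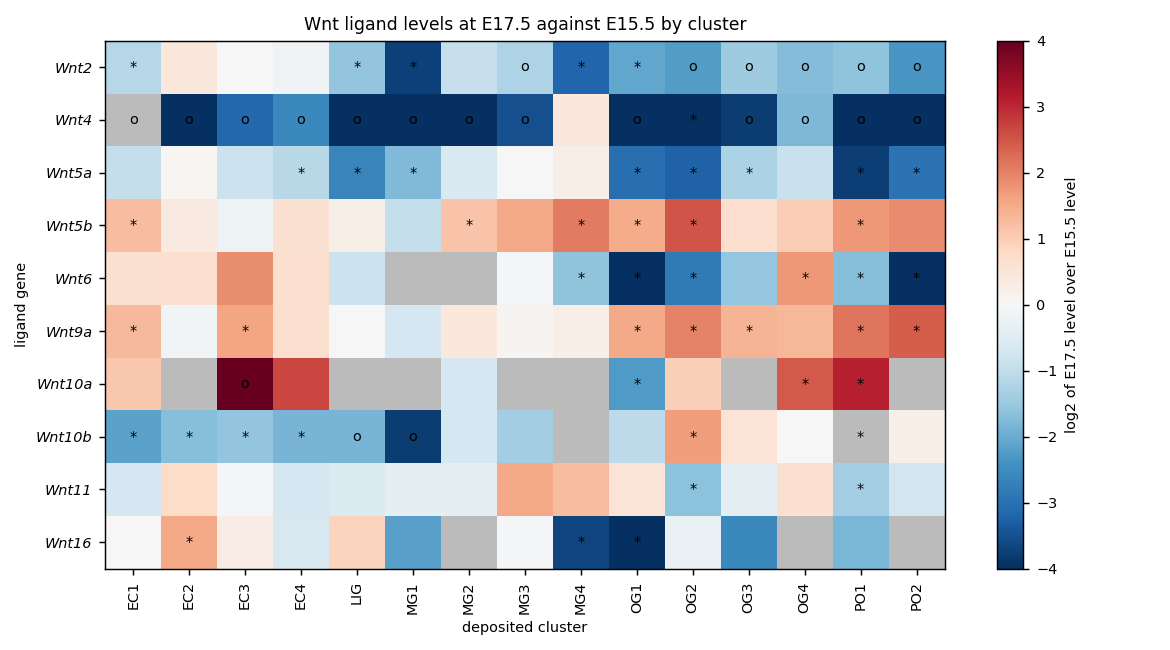
Log2 of the E17.5 level over the E15.5 level for each ligand (rows) and cluster (columns), red for higher at E17.5 and blue for lower, with grey where either library had no UMI. An asterisk marks the 47 called pairs whose higher level exceeded that of myeloid-like cells and a circle the 22 called pairs whose higher level did not. Wnt9a and Wnt5b are mostly red in the osteogenic columns, Wnt2, Wnt4 and Wnt5a mostly blue.

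Within the ectocranial layers, Wnt2 changed unequally. Its EC2 level was 1.33 times (1.27 to 1.39) the E15.5 level, under the 2-fold limit, that of EC3 was 1.02 times (0.932 to 1.11) and that of EC4 0.909 times (0.823 to 1.00). EC1 was at 0.449 times (0.396 to 0.507) and LIG at 0.334 times (0.296 to 0.377). Wnt10b was lower in all 4 ectocranial clusters and LIG, with 0.310 times (0.237 to 0.401) in EC2 and 0.225 times (0.102 to 0.447) in EC1. Wnt16 went the other way in EC2, at 2.88 times (2.27 to 3.69). Wnt11 was at 1.65 times (1.41 to 1.93) in EC2 and 0.678 times (0.557 to 0.828) in LIG, both under the 2-fold limit.

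In the osteogenic clusters Wnt5a was called lower at E17.5, and Wnt9a higher, in 5 of 6 clusters each, the exception being OG4 for both. Wnt5a was at 0.0742 times (0.0489 to 0.110) its E15.5 level in PO1, 0.107 times (0.0770 to 0.146) in OG2, 0.124 times in OG1, 0.130 times in PO2 and 0.412 times in OG3. Wnt9a was at 5.38 times (1.39 to 46.1) in PO2, 4.44 times (2.42 to 9.07) in PO1, 3.97 times (2.51 to 6.58) in OG2, 2.84 times in OG1 and 2.55 times in OG3. Wnt5b was higher in OG2 at 5.78 times (3.2 to 11.5), in PO1 at 3.34 times (2.03 to 5.84) and in OG1 at 2.81 times (1.88 to 4.39). In OG4, Wnt10a was at 5.43 times (3.2 to 10.0) and Wnt6 at 3.30 times (1.56 to 8.37) the E15.5 level, above the OG4 median over all genes of 1.10. Wnt10b in PO1 went from 0 UMIs, which allows up to 3 in 2042161, to 4.81 CPM from 35 UMIs, at least 3.28-fold higher when set against those 3 counts. The exact interval of the ratio, which also covers the error of the 35 UMIs, has its lower limit at 2.53.

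Summed over compartments, Wnt2, Wnt11 and Wnt16 were highest in ectocranial cells at both stages. Wnt2 was 298 and 243 in ectocranial cells against 29.5 and 8.96 in meningeal and 25.9 and 7.06 in osteogenic cells. Wnt11 was 30.1 and 32.0 in ectocranial cells, against at most 9.95 in the others, and Wnt16 was 7.24 and 12.4 against at most 3.24. Wnt5b led in ectocranial cells at E15.5 (10.0 against 7.72 in osteogenic cells) and in osteogenic cells at E17.5 (24.6 against 12.05). Wnt10a was highest in osteogenic cells at both stages, at 2.83 and 10.3. So was Wnt6, although its enriched cluster was MG4, with 10.3 and 3.82 against 3.75 and 2.59 in meningeal cells. For Wnt6 these intervals overlapped at E17.5. Wnt9a, though enriched in EC4, was higher in meningeal than in ectocranial cells at E15.5 (31.2 against 17.1), and at E17.5 their intervals overlapped (27.6 against 26.8). Wnt10b was highest in ectocranial cells at E15.5 (16.02 against 2.92 in osteogenic cells) but not at E17.5, when the values were 4.09 (3.35 to 4.94) and 5.04 (4.45 to 5.69).

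At equal depth, cells with at least 1 of the 10 ligands were most frequent in EC2. With each cell thinned to 3000 UMIs, the share with a UMI of any ligand was 78.6% (75.8% to 81.2%), then 86.2% (83.2% to 88.8%), in EC2, against 14.7% and 6.10% of myeloid-like cells and 8.05% and 7.26% of chondrocyte-like cells. UMIs of at least 2 different ligands were found in 26.3% and 32.6% of EC2 cells and in at most 7.23% (OG2, E15.5) of cells of any osteogenic cluster. Other ectocranial clusters came nearer to EC2, with 22.2% and 20.5% in EC4, 19.7% and 20.1% in EC3 and 21.5% and 11.9% in EC1. LIG was below these clusters at both stages. The share with a UMI of any ligand was 70.3% and then 61.9% in EC3, and 65.1% and then 60.8% in EC4. For the same share, LIG was at 59.8% (55.2% to 64.2%) and then 30.5% (27.1% to 34.1%), and EC1 at 65.2% and then 37.6%. In OG1, the share was 38.6% (32.3% to 45.2%), then 23.8% (21.2% to 26.5%). Wnt4 and Wnt2 UMIs at the level of myeloid-like cells count towards the E15.5 shares, and 14.7% of myeloid-like cells themselves carried a ligand UMI.

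**Figure D4:**
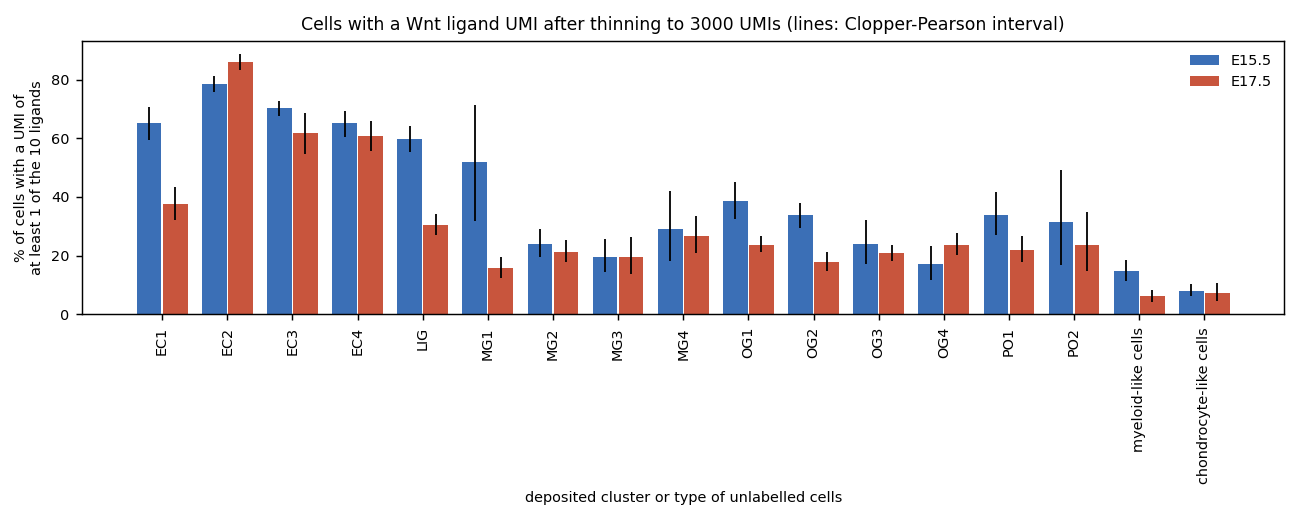
Share of cells (%, axis from 0) with a UMI of at least 1 of the 10 ligands after each cell was thinned to 3000 UMIs, by cluster and in 2 types of unlabelled cells, at E15.5 (blue) and E17.5 (red), with Clopper-Pearson 95% intervals. EC2 is highest at both stages (78.6% and 86.2%), and LIG and EC1 show the largest gaps between stages among clusters of over 100 cells.

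Outside the labelled cells the ligands were mostly low, with the pericyte-like cells as the main exception for Wnt5b. Chondrocyte-like cells held at most 7.43 CPM of any ligand other than Wnt4 (Wnt5a, E17.5). Glia-like cells of the E15.5 library (82 cells) held 236 CPM of Wnt2 and 62.1 of Wnt5a, whereas those of the E17.5 library (32 cells) held 0, which allows up to 8.95, and 8.95 from 3 UMIs. The E15.5 glia-like cells also held 332 CPM of Pi16, 730 of Ly6a and 387 of Nov, all EC2 label markers. The E17.5 ones held 32.8, 77.5 and 14.9. Dpt, a label marker of EC3, was at 572 in the E15.5 glia-like cells, against 550 in EC2 and 519 in EC3. The part of ectocranial RNA or cells in the Wnt2 level of the E15.5 glia-like cells was not tested.

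The rest of the pathway was counted by the same rule. Of the 9 other mouse Wnt genes, 3 passed 10 UMIs in each library, and Wnt7b alone was enriched, in OG2, at 0.975 (4 UMIs) and 10.6 (84 UMIs). Wls, the carrier of secreted Wnts, was found everywhere, from 110.0 (OG4) to 327 (EC2) at E15.5 and from 49.5 (OG4) to 278 (EC2) at E17.5, and neither Wls nor Porcn was enriched (0 of 2). The highest Wls level was thus in EC2 at both stages and the lowest in OG4. At E15.5 the EC2 interval (315 to 339) overlapped that of MG4 (308, 268 to 354). The OG4 interval (95.2 to 126) then overlapped that of OG1 (127, 111 to 144). Of 15 receptor genes, 5 were enriched in at least 1 cluster, a share near the 25.5% of all genes, and 2 of them in a cluster with an enriched ligand. Fzd3 was in MG4 at 34.6 and 8.95, beside Wnt6, and Fzd9 was in OG4 at 13.3 and 20.2, beside Wnt10a. Fzd9 was higher still in MG1 at the later stage (59.4), and in MG1 at E15.5 it had 11.5 from 3 UMIs.

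Of the response genes of the β-catenin pathway, Tcf7 and Notum were enriched in OG4, where Wnt10a and 3.44% of all genes were. Of 7 such genes 6 passed 10 UMIs in each library. Enriched in at least 1 cluster were 4 of the 7, among them Sp5 in PO1 on 1 UMI at E17.5. Sp5 was the gene that did not pass, whereas the 25.5% of genes enriched in at least 1 cluster covers only genes that did. These shares are therefore not like for like. In OG4, Tcf7 was at 61.9, then 184, or 24.8 and 7.52 times the 2.50 and 24.5 of the other labelled cells. Tcf7 is a transcription factor of the pathway and one of the genes used here to check the OG4 label. OG2 held 8.04 and 79.6 of Tcf7, lower than OG4 at both stages. Both values were higher than the 2.50 and 24.5 of the cells outside OG4, which include OG2. The paper describes Tcf7 as enriched in OG2 and reports its protein at bone tips and on periosteal surfaces. Notum, a secreted Wnt deacylase that is itself a target of the pathway, was at 17.7 and 9.34 in OG4, 14.5-fold and 6.28-fold above them. Axin2, the common readout gene, was highest in OG2 at E15.5 (70.7) and in OG1 at E17.5 (13.7), and was not enriched in any cluster under the 2-library rule. Axin2 is named although it was not enriched, a choice made after its values were seen.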

How the data were processed

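The authors aligned reads to mm10 and counted them with Cell Ranger. The E15.5 matrix itself gives release 3.1.0 in its header, later than the release in the study's methods. The authors deposited raw counts of UMIs per gene and barcode for each stage, before their cell filters, and a table with 15 cluster labels from Seurat 3.2.0. At E17.5 the table's UMI counts equal the matrix for 6830 of 6830 cells. At E15.5 they do so for 0 of 5335 (table median 11513), so the labels there rest on another count of the same cells. Of 5340 labelled E15.5 cells, 5335 were in the matrix, and 93 of these lay outside the authors' limits and were kept.

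UMIs were summed per cluster with Python 3.11.15, numpy 2.4.6, scipy 1.17.1 and pandas 2.3.3. Depth was 48607817 UMIs over the labelled E15.5 cells and 92585034 over those of E17.5. A 0 allows 3 counts. Unlabelled cells (2875 and 1937; at least 1000 UMIs and 1000 genes, at most 7.5% mitochondrial and 3% each of Hbb and Hba UMIs) were clustered with scanpy 1.11.5 (Leiden, resolution 1, 2000 variable genes, 30 components and 30 neighbours) and named from at least 3 markers. No doublets were removed from the labelled cells. The E17.5 cells had been sorted against doublets by the authors, and no such step is stated for E15.5. An alternative left out the cells with the top 6% of Scrublet scores per suffix. The members, gene lists and the rule for named genes were chosen with earlier results of these data known. The rule names the 10 ligands, list genes enriched beside a ligand, and for each ligand with at least 100 UMIs in each library the 3 genes of most similar pattern. Overlapping genes and positions are from GENCODE, and promoters from RefSeq were found for 8 of the 10 ligands. The counting rules were tested on simulated data. Alternatives are given at the end.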

Additional observations from a re-analysis of the deposited data

How the results depend on the processing

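The number of enriched pairs was 8 in the reported analysis and 6 to 9 with another normalization, other cell limits, doublet-scored cells left out, thinned cells or a single E17.5 suffix. It was 15 at a limit of 1.5-fold and 2 at 3-fold (Wnt6 in MG4 and Wnt10a in OG4). The pairs lost were Wnt11 in LIG as mean UMIs per cell, Wnt5a in EC4 and Wnt16 in EC2 with thinned cells, and Wnt6 in MG4 with suffix 2. The number of pairs that differed between stages was 69 in the reported analysis and 45 with thinned cells (9 higher and 36 lower), which hold fewer UMIs, and it stayed within 1.5 times 69 under the other alternatives. No called pair was called in the opposite direction under any of them, but the level of Wnt6 in MG4, called lower at E17.5, was 2.38 times (0.691 to 6.66) the E15.5 level in suffix 1, from 7 cells, and Wnt10a in EC3, called higher, had 0 UMIs there. As mean UMIs per cell, 32 pairs were higher and 37 lower at E17.5, against 20 and 49. Requiring a level above myeloid-like cells left 47 pairs, and dividing by the median of all genes gave 71. Both were chosen after seeing the data. The fold of Wnt16 in MG4 at E15.5 was 0.906 with thinned cells against 2.50, and the fold of Wnt4 in MG4 at E17.5 was 0 with suffix 1, which held 7 MG4 cells, and 6.24 with suffix 2, against 11.3. Suffix 1 alone gave 2.85 for Wnt5a in EC2 against 4.60 and 4.84 for Wnt6 in OG4 against 7.38, which was 11.3 as mean UMIs per cell. Of 150 alternative folds of a ligand in its highest cluster, 122 lay inside the counting interval of the reported fold. At resolution 0.5 all 20 myeloid-like levels lay inside their intervals. No paired analysis was possible because the stages came from different embryos. Low ligands such as Wnt4, Wnt6 and Wnt10a are limited by depth in MG1, MG4 and PO2.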
